A study of Mus musculus with 35 samples.

Results

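Antigen recognition by cytotoxic T cells runs through a short chain of proteins, and 9 genes that encode it were followed across all conditions: the CD3 chains Cd3e, Cd3d and Cd3g, the zeta chain Cd247, the co-receptor chains Cd8a and Cd8b1, the kinases Lck and Zap70, and the adaptor Lat. The genes were chosen by name, with earlier results of these data known, as 9 of the 48709 genes in the count tables. All 9 passed the filter on low counts that left 13819 genes for testing. The cells were CTLs (cytotoxic T lymphocytes, killer cells expanded from mouse CD8+ T cells) of OT-I mice, which carry a transgenic T-cell receptor (TCR) specific for ovalbumin. According to the methods of the study, CTLs were primed by antibodies to CD3 and CD28 and then grown in 200 IU/mL murine IL-2, so every group shares this history. One group was taken at the start (0 h). Another 6 groups spent 24 h in medium of pH 7.4, pH 7 or pH 6.6, each with 200 IU/mL IL-2 or without it; the acid was hydrochloric acid. Cells of 5 biological replicates were divided over the conditions, which gave 5 libraries in each of 7 groups and 35 in all. The labels do not say whether each replicate was 1 mouse, so p-values measure the spread between these samples, and dead cells were removed on Ficoll before RNA extraction.

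As background, the TCR alpha and beta chains bind the peptide but cannot signal, and they reach the cell surface only in a complex with CD3 epsilon, delta and gamma and a dimer of the zeta chain. The co-receptor CD8, a dimer of alpha and beta chains, binds MHC class I and brings the Src-family kinase LCK to the engaged receptor. LCK phosphorylates motifs in the CD3 and zeta tails, the kinase ZAP-70 docks there and phosphorylates LAT, and phosphorylated LAT is the membrane scaffold on which calcium, Ras and NF-kappaB signaling begin. Transcript levels were measured here, not protein, surface receptor or phosphorylation.

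The libraries held 16721319 to 34033340 reads assigned to genes, and each of the 9 genes had at least 2689 reads in every library. Levels are given as CPM, the share of a library's reads that fell on a gene, rescaled to a common library size after TMM scaling between libraries, as mean ± SD with n = 5. The summed level of 5 T cell markers was 1875 to 2706 CPM in all libraries, and Cd4 was at 0.12 to 1.79 CPM in the group means. With Zbtb7b and Foxp3 added to Cd4, the summed level of these 3 markers of CD4 and regulatory T cells was higher. It was 41.0 to 63.7 CPM at 0 h and 17.4 to 39.0 CPM in the cultured groups. Of 5 B cell markers, Ms4a1 and Pax5 had no reads in any library, and the summed level of all 5 was at most 6.10 CPM. Some markers of other cells moved with the conditions. The summed level of 4 dendritic cell markers was at most 0.626 CPM at 0 h and 12.7 to 31.4 CPM at pH 6.6, nearly all from Zbtb46, while Siglech was at 0 in every group. The sum of 5 macrophage markers was 16.5 to 32.98 CPM at pH 6.6 and 5.11 to 10.8 CPM at pH 7.4 with IL-2, mostly from Cd68, and Csf1r was at 0 in 5 of the 7 groups. The sum of 3 NK cell markers was 596.2 to 705.1 CPM at pH 7.4 with IL-2 and 167.7 to 184.9 CPM at pH 7.4 without it, mostly from Eomes, with Ncr1 at or near 0 throughout. The gamma-delta T cell genes Trdc and Tcrg-C1 were also present, and Tcrg-C1 fell from a mean of 200.7 CPM at pH 7.4 with IL-2 to 61.2 CPM at pH 6.6 with IL-2. The summed level of the 3 gamma-delta markers Trdc, Sox13 and Tcrg-C1 overlapped between these groups. It was 667.1 to 816.6 CPM (median 740.3) at pH 7.4 and 497.4 to 750.8 CPM (median 686.6) at pH 6.6. The share of all counts of a library that fell in no gene also moved with the conditions. It was 3.91% to 5.18% at pH 7.4 with IL-2, 7.335% to 8.83% at pH 6.6 with IL-2, 7.70% to 10.2% at pH 7.4 without IL-2 and 6.47% to 9.19% at pH 6.6 without IL-2, so the groups compared did not overlap with IL-2 or between the states of IL-2 at pH 7.4. The part of these markers and of this share in the results below was not tested.

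All 9 genes stayed well expressed in every group. The fold between the highest and the lowest group mean ran from 1.22 for Lck to 2.0 for Lat, against a median of 2.06 over the 9007 genes whose mean log2 CPM was 3 or more. Only 2.38% of those genes had a smaller fold than Lck, and 5.21% had a smaller fold than Cd247. Per kilobase of the principal transcript, the level at 0 h was highest for Cd3g, at 827.3 CPM per kb. It was 332.6 to 363.1 CPM per kb for Lat, Cd3e, Cd3d, Cd8a and Lck, 218.2 for Cd8b1, 139.7 for Cd247 and 101.2 for Zap70. These values depend on which transcript is taken for the length, since over all annotated exons Cd3e came to 128.5 CPM per kb at 0 h. The level of Cd247 is uncertain for a further reason: 56.4% of its exon bases lie opposite Pou2f1 on the other strand, and whether the counting used strand is not given in the sources used here.

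**Figure D1:**
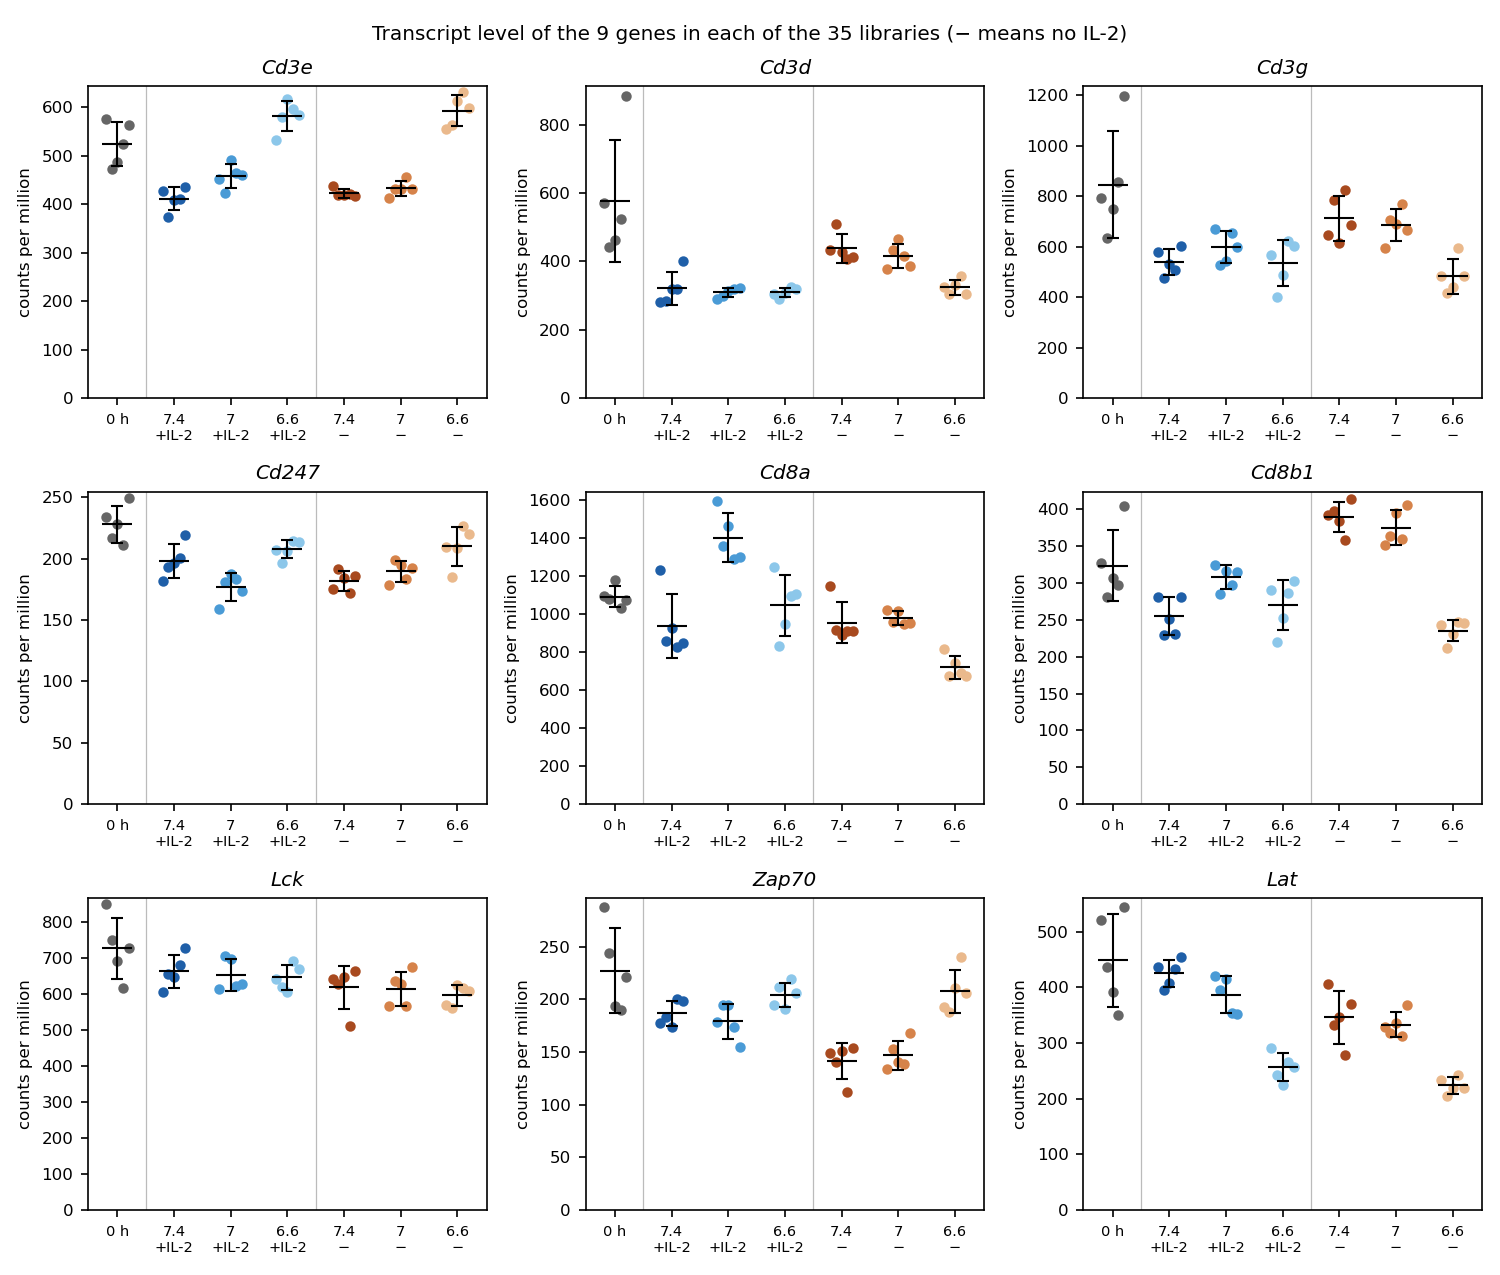
Level of each of the 9 genes (CPM, y axis from 0) in 35 libraries, with points for the 5 replicates, a black bar for the group mean and whiskers for the SD, against the group on the x axis. Cd3e was highest and Lat lowest in both pH 6.6 groups, while Lck stayed between 511.6 and 849.3 CPM in all libraries.

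With IL-2, pH 6.6 against pH 7.4 moved 3 of the 9 genes past an adjusted p of 0.05 (edgeR's quasi-likelihood test with Benjamini-Hochberg adjustment over all tested genes): Cd3e and Cd8a were higher and Lat was lower, where 76.3% of all tested genes passed. Without IL-2, 8 of 9 passed, with Cd3e, Zap70 and Cd247 higher and Cd3d, Cd3g, Cd8a, Cd8b1 and Lat lower, where 67.0% of all tested genes passed. The median log2 fold change over the 9 genes was 0.07 with IL-2 and -0.41 without it, beside -0.07 and -0.03 over all tested genes. The values of the groups at pH 6.6 and pH 7.4 did not overlap for 2 genes with IL-2, where 59.2% of tested genes did not overlap, and for 7 genes without IL-2, where 47.4% did not. At pH 7 the responses were fewer. With IL-2, 2 of 9 genes passed, Cd8a and Cd8b1, both higher at pH 7 than at pH 7.4. Of the 13819 tested genes, 2623 passed in either direction and 9.15% passed as higher. For both members the groups did not overlap, where 13.2% of tested genes did not. Without IL-2, 0 of 9 genes passed by edgeR and 0 by DESeq2, none had an unadjusted p under 0.05, and 1.68% of all genes passed. Comparisons of pH 7 and of pH 6.6 at the same IL-2 state share the 5 libraries at pH 7.4.

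**Figure D2:**
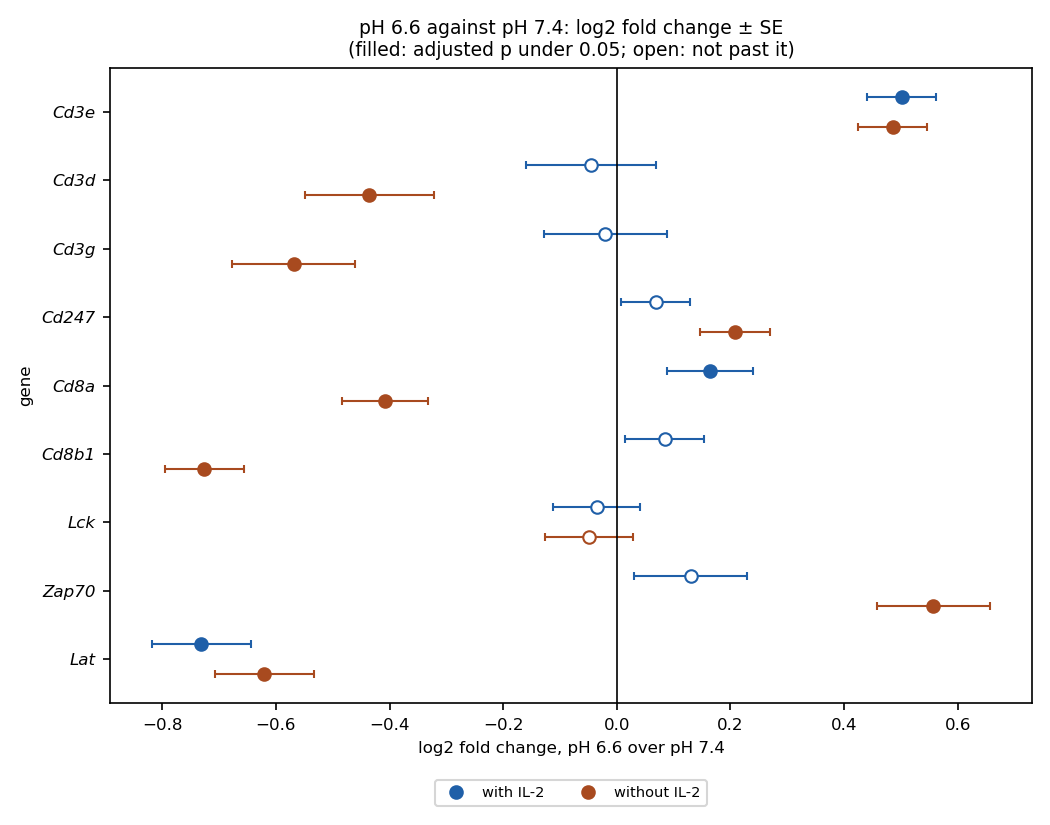
Log2 fold change at pH 6.6 over pH 7.4 (x axis) for each gene (y axis) with IL-2 in blue and without IL-2 in brown, with whiskers for the standard error and filled points past an adjusted p of 0.05. Cd3e and Lat moved alike in both states of IL-2, at 0.50 and 0.49 for Cd3e and -0.73 and -0.62 for Lat, while Cd3d, Cd3g, Cd8a and Cd8b1 were between -0.41 and -0.73 without IL-2.

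Cd3e, the CD3 chain shared by both CD3 dimers of the receptor, rose at pH 6.6. With IL-2 its levels in replicates 1 to 5 were 426.1, 373.5, 408.9, 411.3 and 435.0 CPM at pH 7.4, and 532.3, 578.8, 616.1, 595.5 and 583.3 CPM at pH 6.6. Every library at pH 6.6 lay above every library at pH 7.4. The log2 fold change was 0.50 ± 0.06 (SE, adjusted p = 5.78e-09). Without IL-2 the mean was 422.6 ± 8.92 CPM at pH 7.4 and 592.3 ± 32.05 CPM at pH 6.6, a log2 fold change of 0.49 ± 0.06 (adjusted p = 2.28e-08), again without overlap. The difference between these changes was 0.02 ± 0.09 (adjusted p = 0.88), and 0.24 with total count scaling (adjusted p = 0.0105), where the median of all genes is 0.27. At pH 7 with IL-2 the mean was 458.0 ± 23.8 CPM, above its partner at pH 7.4 in 5 of 5 replicates, but the test was not passed (adjusted p = 0.0662), although DESeq2 (0.0223) and the fit of only these groups (0.0241) passed it. The order of the groups put both pH 6.6 groups first, and they did not differ from each other (adjusted p = 0.79). The mean at 0 h, 524.3 ± 45.7 CPM, came next. Against 0 h, Cd3e was lower at pH 7.4 with IL-2 (-0.35 ± 0.06, adjusted p = 8.18e-06) and without it (-0.31 ± 0.06, 2.95e-05). At pH 6.6 it was higher than at 0 h by 0.15 ± 0.06 with IL-2 (0.0283) and 0.18 ± 0.06 without it (0.00946). These 2 calls at pH 6.6 were lost in some alternatives. In bulk RNA, a change in the number of cells with a transcript and a change in the transcript per cell cannot be told apart.

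Cd3d and Cd3g encode the chains that each pair with CD3 epsilon, and their genes lie next to each other on chromosome 9 of GRCm38, head to head with 1355 bases between their starts. Both were lower at pH 6.6 without IL-2 and neither passed the test with IL-2. Without IL-2, Cd3g was at 648.0, 786.3, 614.6, 822.9 and 686.7 CPM at pH 7.4 and at 482.7, 414.4, 438.4, 595.7 and 484.9 CPM at pH 6.6. All 5 acid libraries lay below all 5 at pH 7.4, with a log2 fold change of -0.57 ± 0.11 (adjusted p = 2.75e-05). Cd3d fell from 437.4 ± 41.4 to 324.1 ± 21.8 CPM, by 0.44 ± 0.11 on the log2 scale (adjusted p = 0.00123), also without overlap. With IL-2 both genes were already low at pH 7.4, at 320.5 ± 48.7 CPM for Cd3d and 538.3 ± 52.05 CPM for Cd3g, and they were at 308.9 ± 13.2 and 535.6 ± 92.3 CPM at pH 6.6 (adjusted p = 0.725 and 0.871). The change with acid differed by IL-2 for Cd3g, with an interaction of 0.55 ± 0.15 (adjusted p = 0.00212), and for Cd3d, at 0.39 ± 0.16 (adjusted p = 0.033). The call for Cd3d was lost without replicate 1 (0.113), replicate 2 (0.16) or replicate 4 (0.0539). Over the 35 libraries the log2 levels of Cd3d and Cd3g had a Pearson's r of 0.84, the highest of all pairs of the 9 genes, while r of Cd3e was -0.02 with Cd3d and -0.17 with Cd3g. These values describe libraries that share conditions and replicates.

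The sequences before the starts of the 3 CD3 genes are shown because Cd3e moved up in acid while Cd3d and Cd3g moved down without IL-2 although all 3 lie within one stretch of chromosome 9. Cd3e spans chr9:44998740-45009627 on the minus strand, Cd3d chr9:44981786-44987339 on the plus strand and Cd3g chr9:44969572-44980431 on the minus strand. The windows are the 250 bases before the start in RefSeq (GRCm38.p6), at chr9:45009612-45009861 (minus strand, 16 bases of it inside the first exon of GENCODE), chr9:44981536-44981785 (plus) and chr9:44980432-44980681 (minus). Capitals mark matches on either strand to GGAAGT, the core bound by ETS factors, or to CAGNTG, 1 subset of the E-box pattern CANNTG. Other forms of CANNTG occur in printed windows, among them those of Cd3e and Lat, and were neither marked nor counted. The motifs were chosen after the sequences were seen.
Cd3e: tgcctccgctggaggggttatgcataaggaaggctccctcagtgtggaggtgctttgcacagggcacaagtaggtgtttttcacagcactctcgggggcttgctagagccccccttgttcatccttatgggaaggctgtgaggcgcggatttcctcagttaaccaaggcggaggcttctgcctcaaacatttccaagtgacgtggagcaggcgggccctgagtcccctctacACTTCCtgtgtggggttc
Cd3d: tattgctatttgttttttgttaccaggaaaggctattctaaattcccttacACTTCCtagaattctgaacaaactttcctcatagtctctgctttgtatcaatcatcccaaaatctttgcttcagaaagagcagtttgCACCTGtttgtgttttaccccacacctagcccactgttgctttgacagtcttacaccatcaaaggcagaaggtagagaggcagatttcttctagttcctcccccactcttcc
Cd3g: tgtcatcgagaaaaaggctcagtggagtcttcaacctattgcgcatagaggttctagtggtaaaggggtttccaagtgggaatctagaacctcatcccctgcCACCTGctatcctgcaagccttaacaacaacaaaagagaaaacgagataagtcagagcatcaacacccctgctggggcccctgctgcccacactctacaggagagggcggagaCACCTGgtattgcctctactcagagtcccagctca
GGAAGT occurred in the windows of Cd3e and Cd3d and not in that of Cd3g. CAGNTG occurred in those of Cd3d and Cd3g, 1 and 2 times, and not in that of Cd3e. Of 32851 windows of the same length before mouse genes, 19.7% held GGAAGT and 44.8% held CAGNTG. Over the 8 of 9 genes with a window in the table, 4 held GGAAGT and 5 held CAGNTG. The matches are descriptions of these letters, and no window was found for Cd8b1.

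Cd247, the zeta chain that carries most of the phosphorylation motifs of the receptor, was 181.6 ± 8.15 CPM at pH 7.4 without IL-2 and 209.9 ± 15.9 CPM at pH 6.6 without IL-2, a log2 fold change of 0.21 ± 0.06 (adjusted p = 0.0036) that was higher in 4 of 5 replicates. With scaling by total counts this call ended (0.06, adjusted p = 0.461). With IL-2 the means were 198.2 ± 13.7 CPM at pH 7.4, 176.9 ± 11.3 CPM at pH 7 and 207.5 ± 7.29 CPM at pH 6.6 (0.07 ± 0.06 for pH 6.6, adjusted p = 0.313). The value at pH 6.6 passed as higher with total count scaling (0.14, adjusted p = 0.0471), in the fit of only these groups (0.14, 0.0324) and by DESeq2 (0.13, 0.0297). The value at pH 7 was lower than at pH 7.4 in 5 of 5 replicates (adjusted p = 0.0605, and 0.0168 by DESeq2).

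Cd8a and Cd8b1 encode the chains of CD8 and lie 35933 bases apart on chromosome 6, Cd8a at chr6:71373427-71379173 and Cd8b1 at chr6:71322788-71337494, both on the plus strand. Both were lower at pH 6.6 without IL-2 and higher at pH 7 with IL-2. With IL-2, Cd8a was at 1231, 860.1, 925.8, 824.4 and 847.7 CPM at pH 7.4, at 1596, 1358, 1464, 1291 and 1299 CPM at pH 7, and at 1247, 834.1, 948.9, 1096 and 1105 CPM at pH 6.6. The libraries at pH 7 lay above all those at pH 7.4 and at pH 6.6, so the level did not follow the order of acidity. Cd8a rose by 0.59 ± 0.08 at pH 7 over pH 7.4 (log2, adjusted p = 2.79e-06). At pH 6.6 it was 0.16 ± 0.08 higher, with an adjusted p of 0.04999, higher in 4 of 5 replicates and with overlap, and the call was lost without the replicate block (0.155), without the filter on low counts (0.176), without replicate 4 (0.305) and without replicate 5 (0.26). Replicate 1 was the highest of its group in every cultured group.

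Without IL-2, Cd8a fell in acid, from 1149, 917.9, 888.3, 910.7 and 909.9 CPM at pH 7.4 to 814.6, 673.8, 744.5, 687.3 and 674.7 CPM at pH 6.6. No library overlapped between the groups, and the log2 fold change was -0.41 ± 0.08 (adjusted p = 2.07e-05). Cd8b1 fell further, from 392.3, 398.3, 384.2, 357.9 and 413.6 CPM to 242.7, 211.5, 231.4, 247.3 and 245.4 CPM. It was lower in 5 of 5 replicates without overlap, at -0.73 ± 0.07 (adjusted p = 1.1e-10). With IL-2, Cd8b1 rose from 254.8 ± 25.7 CPM at pH 7.4 to 308.0 ± 15.9 CPM at pH 7, by 0.28 ± 0.07 (adjusted p = 0.00506), a call lost without replicate 3 (0.0545). At pH 6.6 with IL-2 it was 270.3 ± 33.8 CPM (0.08 ± 0.07, adjusted p = 0.274), but it passed as higher with total count scaling (0.16, adjusted p = 0.0425), in the fit of only these groups (0.16, 0.0389) and by DESeq2 (0.14, 0.0375). The change at pH 6.6 differed by IL-2 for both chains, by 0.57 ± 0.11 for Cd8a (adjusted p = 2.21e-05) and 0.81 ± 0.10 for Cd8b1 (adjusted p = 1.21e-08), each in the same direction in 5 of 5 replicates.

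Lck, the kinase brought in by CD8, was the steadiest of the 9 genes. Its means were 662.5 ± 45.7, 653.5 ± 44.7 and 645.5 ± 35 CPM at pH 7.4, pH 7 and pH 6.6 with IL-2, and 617.9 ± 60.9, 613.4 ± 46.6 and 595.6 ± 29.6 CPM without it. No pair of neighbours in the order of its 7 groups passed the test, and no comparison of pH or of IL-2 did. In the fit of only the groups compared, Lck passed as higher with IL-2 at pH 6.6 (0.15, adjusted p = 0.0185). Against 0 h, Lck was lower without IL-2, at -0.24 ± 0.08 at pH 7.4 (adjusted p = 0.00699) and -0.29 ± 0.08 at pH 6.6 (0.00137). Both of these calls were lost in the fit of only the groups compared (0.0551 and 0.126). With IL-2 the values were -0.13 ± 0.08 at pH 7.4 (0.138) and -0.17 ± 0.08 at pH 6.6 (0.0529), and both passed without replicate 4 (0.0331 and 0.00634). With total count scaling, Lck at pH 7.4 passed with IL-2 (-0.20, adjusted p = 0.0402) and not without it (-0.14, 0.122). The log2 fold change at pH 6.6 was -0.04 ± 0.08 with IL-2 (adjusted p = 0.682) and -0.05 ± 0.08 without it (adjusted p = 0.585). When scaled by total counts, the value without IL-2 was -0.20 (adjusted p = 0.0316), beside a shift in the median of all genes to -0.19.

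Zap70, the kinase that docks on the phosphorylated receptor, depended on pH without IL-2. Without IL-2 it was at 149.0, 140.6, 150.9, 112.2 and 154.1 CPM at pH 7.4, and at 192.9, 187.7, 211.0, 240.3 and 205.9 CPM at pH 6.6. All acid libraries were above all libraries at pH 7.4, with a log2 fold change of 0.56 ± 0.10 (adjusted p = 1.18e-05). With IL-2 the means were 186.8 ± 12.1 CPM at pH 7.4 and 204.4 ± 11.65 CPM at pH 6.6, higher in 5 of 5 replicates but not past the test (adjusted p = 0.233, and 0.00395 in the fit of only these groups). The interaction was -0.43 ± 0.14 (adjusted p = 0.00842), with the call lost without replicate 3 (0.0648) and without replicate 4 (0.0681). At pH 6.6 the means with and without IL-2 were 204.4 and 207.6 CPM with a log2 difference of -0.02 ± 0.10 (adjusted p = 0.889).

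Lat, the scaffold phosphorylated by ZAP-70, fell in acid in both states of IL-2. With IL-2 it was at 437.2, 394.4, 408.2, 432.6 and 454.5 CPM at pH 7.4, and at 291.4, 243.0, 225.4, 266.4 and 256.6 CPM at pH 6.6. Every acid library was below every library at pH 7.4, at 0.603 times the mean and a log2 fold change of -0.73 ± 0.09 (adjusted p = 4.28e-09). Without IL-2 the mean fell from 346.4 ± 47.6 to 224.0 ± 14.85 CPM, by 0.62 ± 0.09 on the log2 scale (adjusted p = 2.08e-07), lower in 5 of 5 replicates and without overlap. The interaction was -0.11 ± 0.12 (adjusted p = 0.433). At pH 7 the means were 387.1 ± 32.6 CPM with IL-2 and 333.2 ± 22.2 CPM without it, and neither passed the test against pH 7.4 (adjusted p = 0.293 and 0.991).

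The windows before Zap70 and Lat are shown because these genes, which act one after the other, moved in opposite directions in acid without IL-2. Zap70 spans chr1:36761798-36782818 on the plus strand and its window is chr1:36761548-36761797, before the first of 3 starts in the RefSeq table. Lat spans chr7:126363824-126369570 on the minus strand and its window is chr7:126369569-126369818, of which 2 bases lie inside the GENCODE gene. Capitals mark CAGNTG on either strand, and TGACGTCA, the full site bound by CREB.
Zap70: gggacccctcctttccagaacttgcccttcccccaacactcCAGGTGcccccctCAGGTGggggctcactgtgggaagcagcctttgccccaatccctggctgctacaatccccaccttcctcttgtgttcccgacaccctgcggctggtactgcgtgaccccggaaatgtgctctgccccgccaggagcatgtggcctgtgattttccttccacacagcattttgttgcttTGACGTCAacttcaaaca
Lat: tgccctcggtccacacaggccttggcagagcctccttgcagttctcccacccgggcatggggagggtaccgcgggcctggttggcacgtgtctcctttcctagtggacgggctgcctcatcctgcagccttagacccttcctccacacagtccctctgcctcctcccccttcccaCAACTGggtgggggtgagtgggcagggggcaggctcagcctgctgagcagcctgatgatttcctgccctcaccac
The window of Zap70 held TGACGTCA once and CAGNTG 2 times. That of Lat held CAGNTG once. TGACGTCA was found in 1.55% of the 32851 windows and in 1 of the 8 windows of these genes. GGAAGT was found in neither of the 2. The RUNX motif TGTGGT, which 14% of all windows held, was found in none of the 5 windows printed here. It was found in 1 of the 8 windows of these genes, that of Lck.

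At pH 7.4, IL-2 against no IL-2 gave higher Zap70 and Lat and lower Cd3d, Cd3g and Cd8b1, 5 of 9 genes where 80.4% of all genes passed. Cd8b1 differed most, at -0.62 ± 0.07 (adjusted p = 1.22e-09), with 281.2, 229.9, 251.5, 230.2 and 281.4 CPM with IL-2 below all 5 libraries without it. The log2 difference was -0.46 ± 0.11 for Cd3d (adjusted p = 0.000473) and -0.41 ± 0.11 for Cd3g (adjusted p = 0.00104). Zap70 was 0.40 ± 0.10 higher (adjusted p = 0.000474) and Lat 0.30 ± 0.09 higher (adjusted p = 0.00203). The summed level of NK cell markers, mostly Eomes, also differed between these groups, as given above. Its part in any of these differences was not tested. At pH 7, 5 of 9 genes passed where 77.2% of all genes did: Cd8a (0.51), Zap70 (0.29) and Lat (0.22) were higher and Cd3d (-0.43) and Cd8b1 (-0.29) lower. The call for Lat there was lost without replicate 1 (0.0911), 2 (0.103) or 3 (0.235), and that for Zap70 without replicate 3 (0.154).

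At pH 6.6, 2 of 9 genes passed, both higher with IL-2. Of the 13819 tested genes, 3278 passed there in either direction and 13.2% passed as higher. Cd8a was 0.54 ± 0.08 higher with IL-2 (adjusted p = 2.23e-06) without overlap between the groups. Cd8b1 was 0.19 ± 0.07 higher (adjusted p = 0.0414), the reverse of its direction at pH 7.4, and this call was lost without the replicate block (0.118), without the filter on low counts (0.132) and without replicate 1 (0.125), 4 (0.107) or 5 (0.12). The interaction of pH 6.6 and IL-2, the change in acid with IL-2 minus the change without it, passed for 5 of 9 genes, where 67.0% of all genes passed: Cd3d, Cd3g, Cd8a and Cd8b1 were positive and Zap70 was negative.

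**Figure D3:**
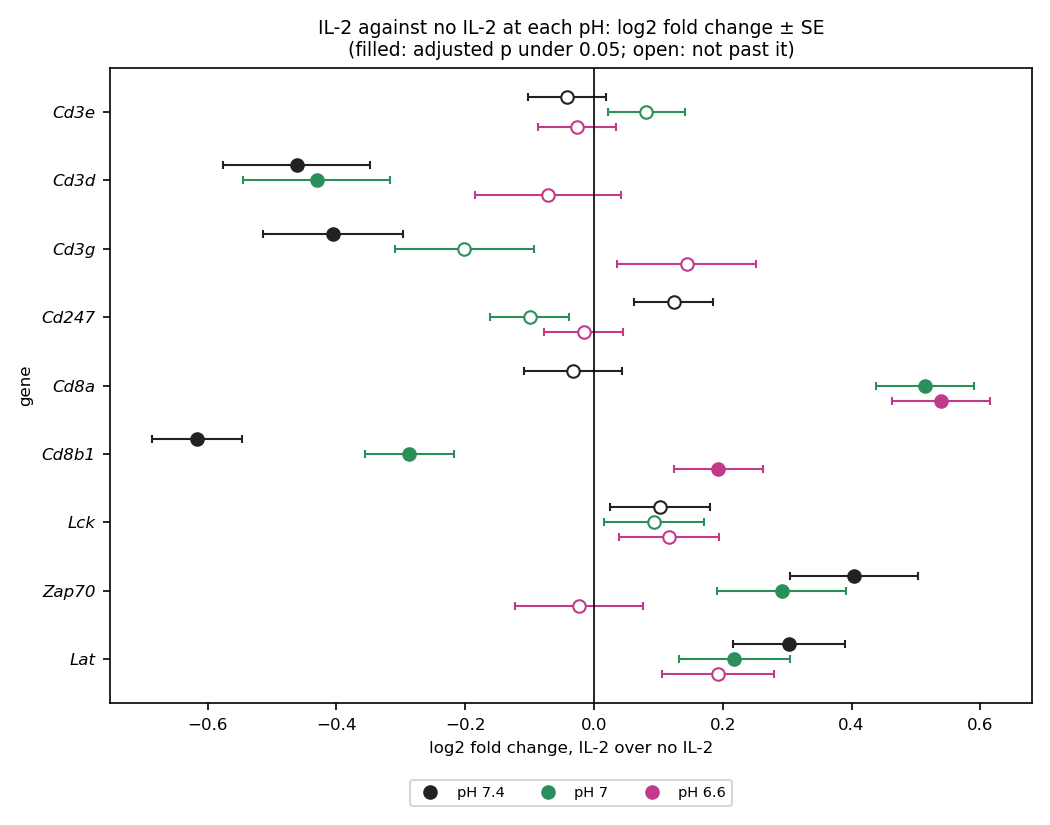
Log2 fold change of IL-2 over no IL-2 (x axis) for each gene (y axis) at pH 7.4 in black, pH 7 in green and pH 6.6 in magenta, with whiskers for the standard error and filled points past an adjusted p of 0.05. Cd8b1 moved from -0.62 at pH 7.4 to -0.29 at pH 7 and 0.19 at pH 6.6, and Cd8a was at 0.51 and 0.54 at pH 7 and pH 6.6.

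Scaling by total counts alone in place of TMM moved the median log2 fold change of all tested genes from -0.03 to -0.19 for pH 6.6 without IL-2, from -0.04 to -0.20 for IL-2 at pH 7.4, from -0.04 to -0.16 for IL-2 at pH 7 and from 0.04 to 0.27 for the interaction. Members higher and lower then numbered 2 and 6 for pH 6.6 without IL-2, 1 and 5 for IL-2 at pH 7.4, 1 and 4 for IL-2 at pH 7, and 5 and 0 for the interaction. For pH 6.6 with IL-2 they numbered 4 and 1, and for pH 7 with IL-2 RLE scaling gave 2 and 1. With total counts the calls for Zap70 in the interaction (adjusted p = 0.234), for Lat with IL-2 at pH 7.4 (0.14) and for Zap70 and Lat with IL-2 at pH 7 (0.129 and 0.31) were lost. No member past the threshold changed direction under RLE or total count scaling. The interactions of Cd3d, Cd3g, Cd8a and Cd8b1 were then 0.62, 0.78, 0.80 and 1.04, still past the threshold and above the shifted median, and Cd3e was the fifth, at 0.24 (adjusted p = 0.0105), below that median.

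Against the cells at 0 h, most members that passed the test were lower after 24 h. Medians of the log2 fold change over the 9 genes were -0.28 with IL-2 and -0.31 without it at pH 7.4. Over all tested genes they were -0.03 and -0.01. At pH 6.6 the medians were -0.17 with IL-2 and -0.45 without it over the 9 genes, and -0.08 and -0.07 over all. At pH 7.4 with IL-2, 7 of 9 genes passed, all lower, and Lck and Lat did not pass. Of the 13819 tested genes, 8282 passed there in either direction and 30.9% passed as lower. Cd3d showed the largest fall, by 0.84 ± 0.11 on the log2 scale (adjusted p = 1.68e-07), from 571.9, 441.1, 460.9, 524.8 and 882.2 CPM at 0 h to 281.8, 283.5, 317.7, 317.7 and 401.7 CPM. Replicate 5 was the highest at 0 h for Cd3d, Cd3g, Cd247, Cd8b1 and Lat. This library also stood apart from the other 34. It had the lowest share of counts in no gene (2.58%) and the highest share for alignment to several places (48.3%, the next being 42.7%). The part of this in its levels was not tested. Without replicate 5 the fall of Cd3d at pH 7.4 without IL-2 no longer passed (adjusted p = 0.0783). At pH 7.4 without IL-2, Cd8b1 was higher than at 0 h, at 0.28 ± 0.07 (adjusted p = 0.000678), and 7 genes were lower, where 75.2% of all genes passed. Zap70 had the largest fall there, by 0.68 ± 0.10 (adjusted p = 2.82e-07). At pH 6.6 without IL-2, 6 genes were lower and Cd3e was higher, where 75.1% of all genes passed, and Lat was at 0.499 times its level at 0 h (-0.99 ± 0.09, adjusted p = 5.73e-12). At pH 6.6 with IL-2, 4 genes were lower and Cd3e was higher, where 68.5% of all genes passed. Scaling by total counts gave 1 higher and 5 lower for pH 7.4 without IL-2, and 0 and 7 for pH 6.6 without IL-2. The smaller of these differences depended on the fit, and those of Cd3e at pH 6.6 (0.15 and 0.18) were lost without replicate 2 (adjusted p = 0.178 and 0.0578) and without replicate 4 (0.0835 and 0.0568).

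Ratios of pairs of members within each library do not depend on the scaling between libraries. They were compared by an exact two-sided sign-flip permutation test over the 5 replicates, for which 0.0625 is the smallest p possible, so no ratio could pass 0.05. Without IL-2 the log2 ratio of Cd3d to Cd3e counts went from 0.045 ± 0.14 at pH 7.4 to -0.87 ± 0.07 at pH 6.6, a mean difference of -0.92 ± 0.17 (SD) with 5 of 5 replicates lower. For Cd3g to Cd3e the difference was -1.05 ± 0.21. With IL-2 the same differences were -0.54 ± 0.21 and -0.52 ± 0.27, again lower in 5 of 5 replicates. With IL-2 against no IL-2, Cd8b1 to Cd8a differed by -0.58 ± 0.11 at pH 7.4 and -0.34 ± 0.10 at pH 6.6, lower in 5 of 5 replicates. Zap70 relative to Lck was higher in acid without IL-2 by 0.61 ± 0.13 and with IL-2 by 0.17 ± 0.10, in 5 of 5 replicates each. Of 20 ratios compared, 5 in each of 4 comparisons, all those at pH 6.6 against pH 7.4 without IL-2 and with IL-2 at pH 7.4 moved one way in 5 of 5 replicates (exact p = 0.0625 each, and 0.0625 after Benjamini-Hochberg adjustment within a comparison).

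**Figure D4:**
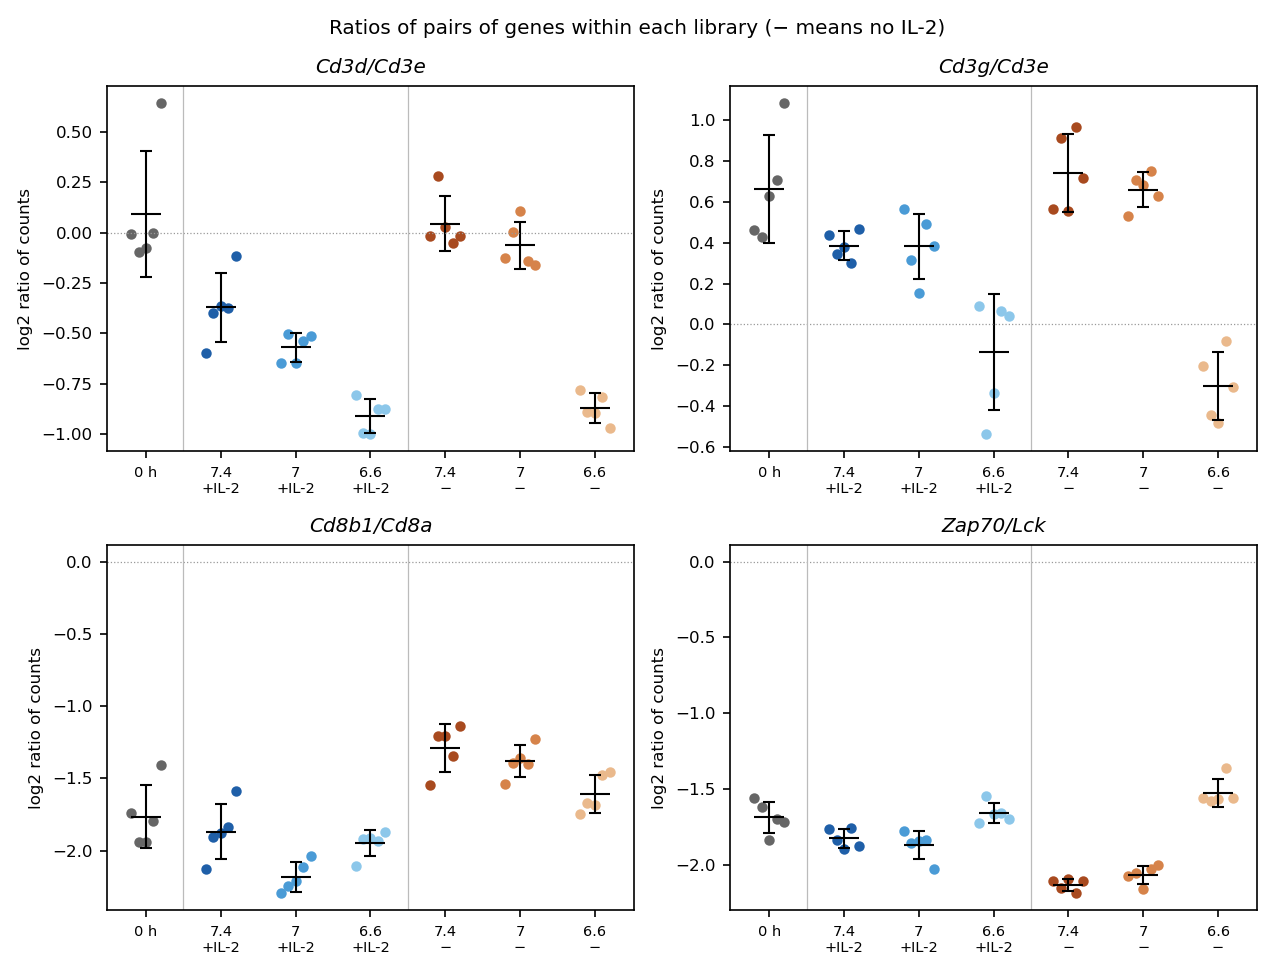
Log2 ratio of counts of 4 pairs of genes (y axis) in each of the 35 libraries by group (x axis), with points for replicates, a bar for the mean and whiskers for the SD. Cd3d to Cd3e was lowest in the pH 6.6 groups, at means of -0.91 with IL-2 and -0.87 without it, and Cd8b1 to Cd8a was lower with IL-2 than without it at each pH.

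Other genes of proximal TCR signaling, 46 in 5 lists, were counted for comparison, and all 46 were tested. The 3 TCR constant region genes Trac, Trbc1 and Trbc2 were all higher at pH 6.6 with IL-2, at 0.67, 1.33 and 1.16 on the log2 scale (adjusted p = 2.16e-11, 1.35e-13 and 4.48e-12). Trbc1 went from 284.8 ± 40.1 to 713.2 ± 67.4 CPM, without overlap. Without IL-2, Trbc1 (1.12, adjusted p = 2.57e-11) and Trbc2 (0.27, adjusted p = 0.0187) passed and Trac did not (adjusted p = 0.803). With total count scaling, 1 of the 3 passed as higher there (Trbc1) and 1 as lower (Trac). The call for Trbc2 was lost with total count scaling (0.275), without the block (0.0619) and without replicate 1 (0.0794), 3 (0.12) or 4 (0.0531). Trbc1 and Trbc2 are near-identical copies and can exchange or lose reads, and reads of the OT-I transgene and of the endogenous genes cannot be told apart in these counts.

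Of 19 adaptors and enzymes that gather around LAT, 11 were higher and 3 lower at pH 6.6 with IL-2, with a median log2 fold change of 0.30 beside -0.07 over all tested genes. The highest were Fyb, an adaptor that links the receptor to integrins (2.05 ± 0.06, from 213.8 ± 11.7 to 885.3 ± 87.0 CPM, adjusted p = 4.52e-23), Trat1, a transmembrane adaptor of the receptor (1.89), and Malt1, a protease on the path to NF-kappaB (1.82). Those that fell were Lcp2, which encodes the LAT partner SLP-76 (-0.49 ± 0.05, adjusted p = 6.36e-10), the exchange factor Vav1 (-0.25 ± 0.06, adjusted p = 0.000428) and the adaptor Grb2 (-0.14 ± 0.05, adjusted p = 0.0146). The call for Grb2 was lost under 8 alternatives, total count scaling (0.221) and DESeq2 (0.0704) among them. Without IL-2, 9 of the 19 were higher and 4 lower, with a median of 0.22.

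The 6 other proximal tyrosine kinases and regulators of them were split, with 1 higher and 2 lower with IL-2. Txk, a TEC-family kinase, rose from 129.2 ± 11.3 to 220.5 ± 12.9 CPM (0.77, adjusted p = 6.78e-11), while Csk, which inhibits LCK, fell by 0.50 (adjusted p = 5.08e-06) and the ZAP-70 relative Syk, at 2.12 CPM or less in both groups, fell by 0.98 (adjusted p = 0.000362). Without IL-2, Csk was higher in acid (0.35, adjusted p = 0.000746), a call lost with total count scaling (0.20, adjusted p = 0.0622), and the interaction for Csk was -0.86 ± 0.12 (adjusted p = 3.43e-07). Ptprc, which encodes CD45, the phosphatase that keeps LCK active, rose from 2948 ± 352 to 5265 ± 602 CPM with IL-2 (0.84 ± 0.09, adjusted p = 3.84e-10) and by 0.50 without it (adjusted p = 1.08e-05).

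Among 17 brakes on the pathway, 8 were higher and 5 lower at pH 6.6 with IL-2, with a median of 0.24, and 6 were higher and 5 lower without IL-2, with a median of -0.04 (4 and 8, with a median of -0.19, by total count scaling). Dgka, a lipid kinase that removes diacylglycerol, had 215.0 ± 40.0 CPM at pH 7.4 with IL-2 and 696.7 ± 45.9 CPM at pH 6.6 with IL-2, a log2 fold change of 1.70 ± 0.10 (adjusted p = 1.05e-16), while without IL-2 it fell from 1399 ± 111 to 1067 ± 84 CPM (-0.39 ± 0.09, adjusted p = 0.000578). The phosphatase Ptpn22 (1.39) and the ubiquitin ligase Cblb (1.28) rose with IL-2, and the phosphatase Ptpn6 (-1.04), the adaptor Dok2 (-1.04) and Ubash3b (-0.78) fell. These lists were chosen with earlier results of these data known, and their counts describe them beside the 76.3% and 67.0% of all genes that passed.

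**Figure D5:**
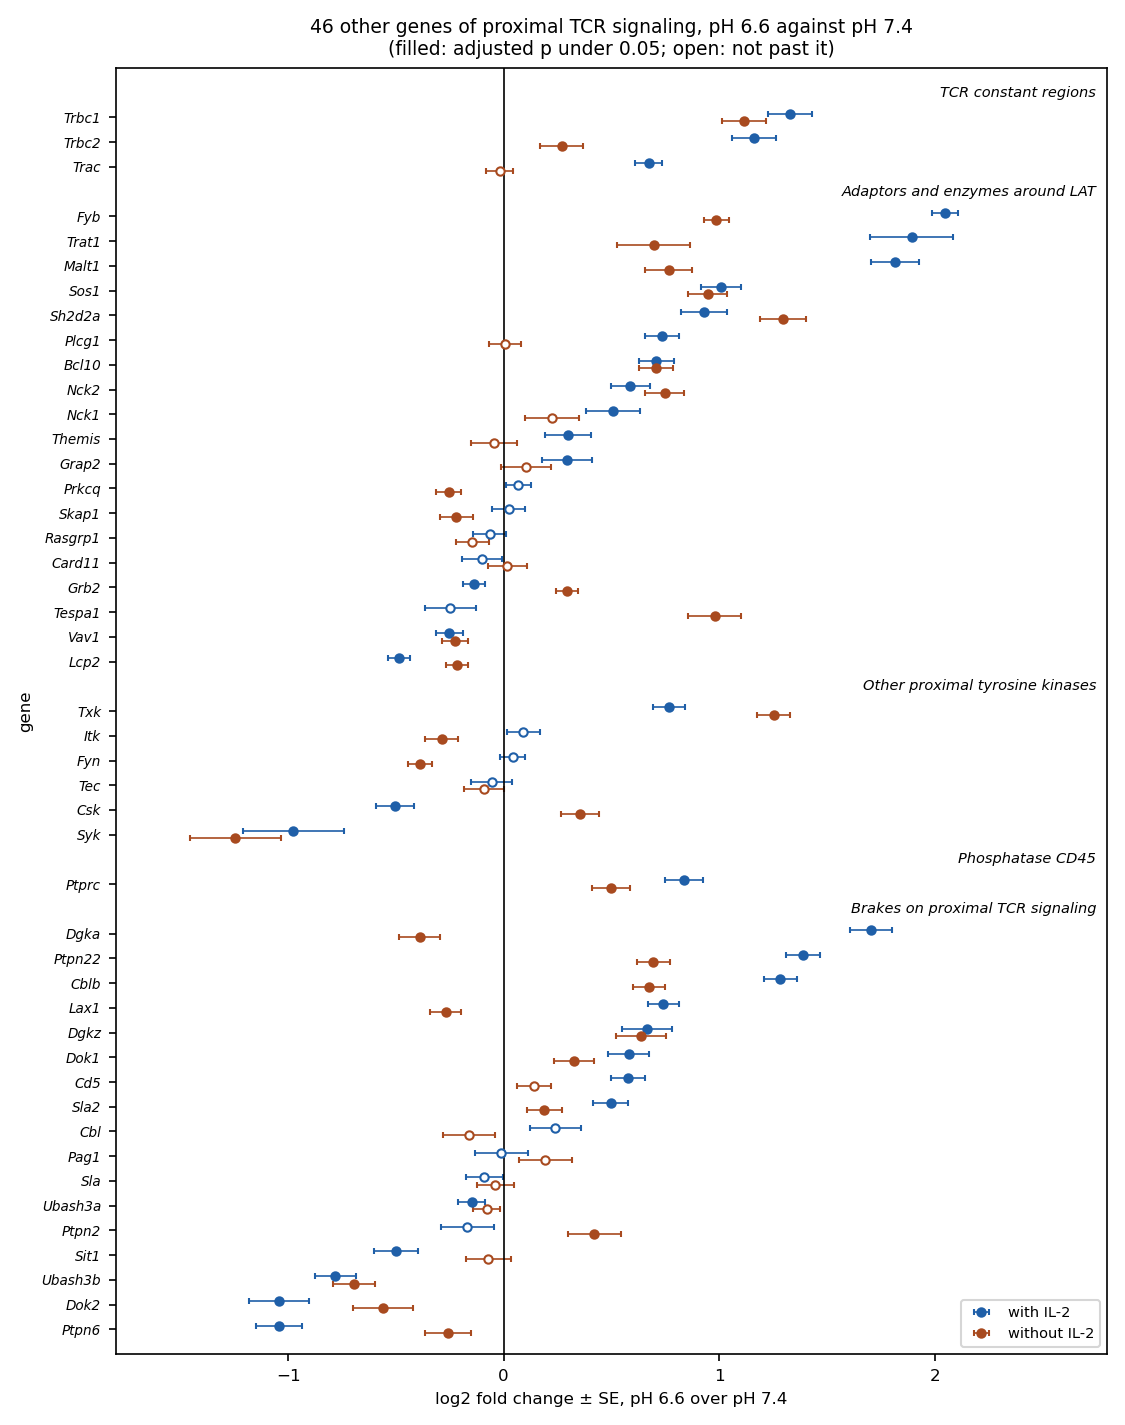
Log2 fold change at pH 6.6 over pH 7.4 (x axis) of 46 other genes of the pathway (y axis, in 5 lists), with IL-2 in blue and without it in brown, whiskers for the standard error and filled points past an adjusted p of 0.05. All 3 constant region genes lay to the right with IL-2, and Dgka stood at 1.70 with IL-2 and -0.39 without it.

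Genes whose log2 level followed each member most closely over the 35 libraries were named as a description, with no test. For Cd3e they were Trbc1 and Eci1 (Pearson's r of 0.93 and 0.92), for Cd3d Arl3 and Dhrs7 (0.92 each), for Cd3g Gm5547 and Nudt18 (0.88 and 0.86), and for Cd247 Gpi1 and Tnfrsf18 (0.88 and 0.85). Cd8a was closest to Ctsw and Itgb7 (0.86 and 0.84) and Cd8b1 to AB124611 and Pigp (0.91 each), while r between Cd8a and Cd8b1 themselves was 0.39. Lck had the weakest partners, Bad and Esrra (0.80 and 0.78), Zap70 had Mri1 and Atp5d (0.94 and 0.93), and Lat had Cuedc2 and D10Jhu81e (0.96 each).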

How the data were processed

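RNA of 35 libraries was measured with stranded, polyA-selected libraries and single reads on an Illumina HiSeq instrument. The authors deposited one table of raw counts per gene for each library, with no normalization; the submitters' processing notes name cutadapt 1.8, STAR 2.5.2b, HTSeq 0.6.1 and GRCm38, and the parameters and annotation are not given in the sources used here. Rows that name no gene were left out: those for alignment to several places (a median of 37.1% of all counts of a library), for no gene (7.42%) and for ambiguous reads (0.9215%). Whether a read aligned to several places entered these counts once is not given in the sources used here. Leaving such reads out can lower the counts of genes that have close copies.

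In R 4.3.3, edgeR 4.0.16 kept 13819 genes (filterByExpr, minimum count 10), scaled them by TMM and fitted 1 robust quasi-likelihood model to all 35 libraries with group and replicate number as terms (common biological coefficient of variation 0.12). The series states that cells of each replicate were divided over the conditions, and 95 of 105 same-numbered pairs of libraries had correlated deviations from their group means (r over 0.1, median 0.27, against -0.07 for different numbers). Alternatives were RLE and total count scaling, no filter, no block, only the groups compared, DESeq2 1.42.0, a log2 fold change of at least 1, and leaving out each replicate. Symbols and coordinates are of GENCODE M21 (GRCm38). Named genes were all 9 members, in each other list the genes past the threshold at pH 6.6 with IL-2 with the 3 largest rises and falls leaving out genes of mean log2 CPM under 1, and for each member the 2 most correlated genes. The members and lists were chosen with earlier results of these data known, and the alternatives for the other lists were added after seeing the data.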

Additional observations from a re-analysis of the deposited data

Results flagged for a closer look

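In 5 of the 63 sets of 5 libraries (9 genes in 7 groups), 1 library stood apart from the other 4 by Dixon's criterion, which chance alone meets in about 1 in 20 sets. All 5 were at pH 7.4. Cd8a was at 1231 CPM in replicate 1 with IL-2, against 824.4 to 925.8 CPM in the others, and at 1149 CPM in replicate 1 without IL-2, against 888.3 to 917.9 CPM. Without IL-2, Cd3e was at 438.3 CPM in replicate 1 (others 417.2 to 421.7), Cd3d at 509.0 CPM in replicate 2 (406.5 to 433.0) and Lck at 511.6 CPM in replicate 4 (626.4 to 663.7).

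The change at pH 6.6 differed between the states of IL-2, by the test of the interaction, for 5 of 9 genes, where 67.0% of all tested genes passed. The differences were 0.81 for Cd8b1, 0.57 for Cd8a, 0.55 for Cd3g, 0.39 for Cd3d and -0.43 for Zap70 on the log2 scale. Each had 5 of 5 replicates on the same side. The calls for Cd3d and Zap70 were lost in some alternatives, as given above.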

How the results depend on the processing

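Of 57 member values past the threshold over the 12 comparisons, 38 stayed past it under every alternative of scaling, filter, block, groups, tool and replicates, 19 were lost in at least 1, and 0 changed direction. Of the 51 others, 21 changed sign in some alternative, at 0.12 or less on the log2 scale after the change, and 22 passed the threshold in some alternative. No member passed a required log2 fold change of 1 in any of the comparisons, so each count became 0.

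For pH 6.6 with IL-2 (3 members), total count scaling gave 5, the fit of only the groups compared 6 and DESeq2 5. For pH 7 with IL-2 (2), DESeq2 gave 4. For IL-2 at pH 6.6 (2), no filter gave 1, no replicate block 1 and only the groups compared 5. In no other comparison did leaving out the replicate block move the count by over 1.5 times. Against 0 h, the fit of only the groups compared gave 4 in place of 7 at pH 7.4 with IL-2, 5 in place of 8 at pH 7.4 without IL-2 and 3 in place of 5 at pH 6.6 with IL-2. The causes were not tested.

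Leaving out each replicate gave 2 to 3 members for pH 6.6 with IL-2, 1 to 2 for pH 7 with IL-2, 8 for pH 6.6 without IL-2, 0 for pH 7 without IL-2, 5 to 6 for IL-2 at pH 7.4, 4 to 5 at pH 7 and 1 to 2 at pH 6.6, and 3 to 5 for the interaction, with 3 without replicate 4. Against 0 h it gave 6 to 8 and 7 to 8 at pH 7.4 with and without IL-2, and 4 to 7 and 6 to 8 at pH 6.6.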
